A study of Mus musculus with 12 samples.

Results

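The genes described here are 10 transcription factor genes that pattern the Mullerian tract, the embryonic tube that becomes the oviduct, uterus, cervix and upper vagina. They were chosen by gene symbol, as every probe that the platform annotation assigns to Hoxa9, Hoxa10, Hoxa11, Hoxa13, Hoxd9, Hoxd10, Emx2, Pax2, Pax8 or Lhx1. That gave 20 of the 45281 probes on the array. RNA from 12 uteri of 2-month-old female C57BL/6 mice was measured on Illumina bead arrays, 1 array per uterus and 3 uteri per genotype. The double cKO group carries knock-outs of both Cdh1 and Trp53, the Cdh1 cKO group a knock-out of Cdh1 with Trp53 intact, and the Trp53 cKO group a knock-out of Trp53 with Cdh1 intact. The control group is wild type for both genes. Cdh1 encodes E-cadherin, the adhesion protein of epithelial junctions, and Trp53 the tumour suppressor p53. The ending cKO is the one in the sample titles, and the sources used here do not give the recombinase, the cells it acts in, which exons were deleted, the estrous stage or any litter shared between animals. P-values therefore measure the spread between these uteri.

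Hox genes lie in clusters, and their order along a cluster follows the order of their domains along the tract. In the mouse, Hoxa9 is associated with the oviduct, Hoxa10 with the uterus, Hoxa11 with the uterus and cervix, and Hoxa13 with the cervix and upper vagina, and in the adult uterus Hoxa10 and Hoxa11 serve receptivity and decidualisation. Lhx1, Pax2, Emx2 and Pax8 act earlier or in the epithelium: Lhx1, Pax2 and Emx2 are needed to form the ducts, and Pax8 is a marker of Mullerian epithelium in the adult.

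The Hoxd9, Hoxd10 and Pax8 promoters are shown because the largest differences below were in these genes and because Hoxd9 and Hoxd10, neighbours on chromosome 2, varied together. Each run is the 250 bases upstream of the RefSeq start in GRCm38.p6, 5′ to 3′ on the gene's strand, and capitals mark matches to 1 of 5 motifs searched on both strands. The motifs were TTTAT for posterior Hox factors, TATAAA for the TATA box, CCAAT for the CCAAT box, GGTCA for the core of the estrogen receptor site and GGGCGG for the GC box. Hoxd9 is at chr2:74697513-74697762 on the plus strand, Hoxd10 at chr2:74691641-74691890 on the plus strand, and Pax8 at chr2:24475600-24475849 on the minus strand.
Hoxd9: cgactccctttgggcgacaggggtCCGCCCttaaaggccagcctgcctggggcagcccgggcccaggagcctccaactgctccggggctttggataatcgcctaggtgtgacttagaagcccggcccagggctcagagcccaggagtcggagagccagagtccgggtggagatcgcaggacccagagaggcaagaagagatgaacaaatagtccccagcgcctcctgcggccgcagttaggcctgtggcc
Hoxd10: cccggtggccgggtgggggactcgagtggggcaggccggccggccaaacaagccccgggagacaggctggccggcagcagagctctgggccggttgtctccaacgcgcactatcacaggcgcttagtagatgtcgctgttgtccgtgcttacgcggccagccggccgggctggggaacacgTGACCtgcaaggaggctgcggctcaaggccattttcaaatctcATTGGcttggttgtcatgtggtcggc
Pax8: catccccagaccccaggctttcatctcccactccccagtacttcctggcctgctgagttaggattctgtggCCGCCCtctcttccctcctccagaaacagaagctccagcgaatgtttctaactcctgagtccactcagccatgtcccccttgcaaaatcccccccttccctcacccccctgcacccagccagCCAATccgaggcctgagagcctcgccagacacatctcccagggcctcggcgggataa
The Hoxd9 window holds 1 GC box in reverse, Hoxd10 holds 1 estrogen receptor core and 1 CCAAT box, both in reverse, and Pax8 holds 1 GC box in reverse and 1 CCAAT box. Each of these motifs is common, since GGGCGG was in 32.7%, GGTCA in 35.2% and CCAAT in 33.8% of 32851 windows of the same length. TTTAT and TATAAA, found in 37.3% and 12.4% of windows, were in none of the 3. The GC content was 65.2% for Hoxd9, 65.6% for Hoxd10 and 60.4% for Pax8, against a median of 52.4% over all windows. A match is a description of the letters and no evidence of binding.

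The values below are the authors' deposited log2 signals, and a probe counts as detected on an array where its deposited detection p-value is below 0.05. Between 44.3% and 47.9% of probes were detected on each array, and each value rests on a median of 41 to 43 beads. The number of arrays limits the precision. Acta2, the smooth muscle actin of the myometrium, was at 14.54 to 14.93 on all 12 arrays, and the epithelial keratin Krt8 at 12.14 to 13.29. Neither gene can tell the uterus from other parts of the tract, so they do not check the tissue label. The brighter of the 2 probes of the targeted gene Cdh1 averaged 8.41 in double cKO uteri (7.36 to 9.67), 9.77 in uteri labelled Cdh1 cKO (9.58 to 9.98), 9.14 in Trp53 cKO uteri (9.04 to 9.26) and 9.73 in control uteri (9.41 to 10.08). By that probe double cKO differed from control by -1.33 ± 0.45 on the log2 scale and the uteri labelled Cdh1 cKO by 0.03 ± 0.45 (SE, limma adjusted p = 0.179 and 0.992). The dimmer probe averaged 5.50 in double cKO uteri, 4.99 in uteri labelled Cdh1 cKO, 5.12 in Trp53 cKO uteri and 5.204 in control uteri, and its differences from control were 0.30 ± 0.27 in double cKO and -0.21 ± 0.27 in uteri labelled Cdh1 cKO (adjusted p = 0.673 and 0.870). In double cKO the probes thus had opposite signs, and in the uteri labelled Cdh1 cKO both differences were smaller than their standard errors. Neither probe passed in either group, and the group labelled Cdh1 cKO is called by its label throughout. Whether either probe lies in deleted sequence is unknown here. Double cKO replicate 1 had the oviduct gene Ovgp1 at 13.19, against 5.43 and 5.79 in the other double cKO uteri, 7.34 to 7.61 in uteri labelled Cdh1 cKO, 8.46 to 11.004 in Trp53 cKO uteri and 10.39 to 11.96 in control uteri. Replicate 3 of the group labelled Cdh1 cKO had the squamous keratin Krt14 at 13.79, against 8.18 or less in the other 11 uteri.

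Of the 20 probes, 13 were detected on at least 3 of the 12 arrays and could be tested, and they cover 8 of the 10 genes. Hoxd9, Hoxd10, Hoxa9, Hoxa10, Hoxa13 and Pax8 had a probe detected on all 12 arrays, and the single Hoxa11 probe and the brighter Pax2 probe were detected on 9. Emx2 and Lhx1 were detected on 0 of 12 arrays. The Emx2 probe lay between 4.32 and 4.64 and the Lhx1 probes between 4.26 and 4.53, below the lowest signal of any detected probe, which was 4.80 to 4.98 across arrays. The dimmest probes of Hoxa9, Hoxa10, Hoxa13 and Pax2 were also detected on 0 of 12 arrays. Probes differ in how brightly they report a transcript, so levels are compared between uteri only and not between genes.

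**Figure D1:**
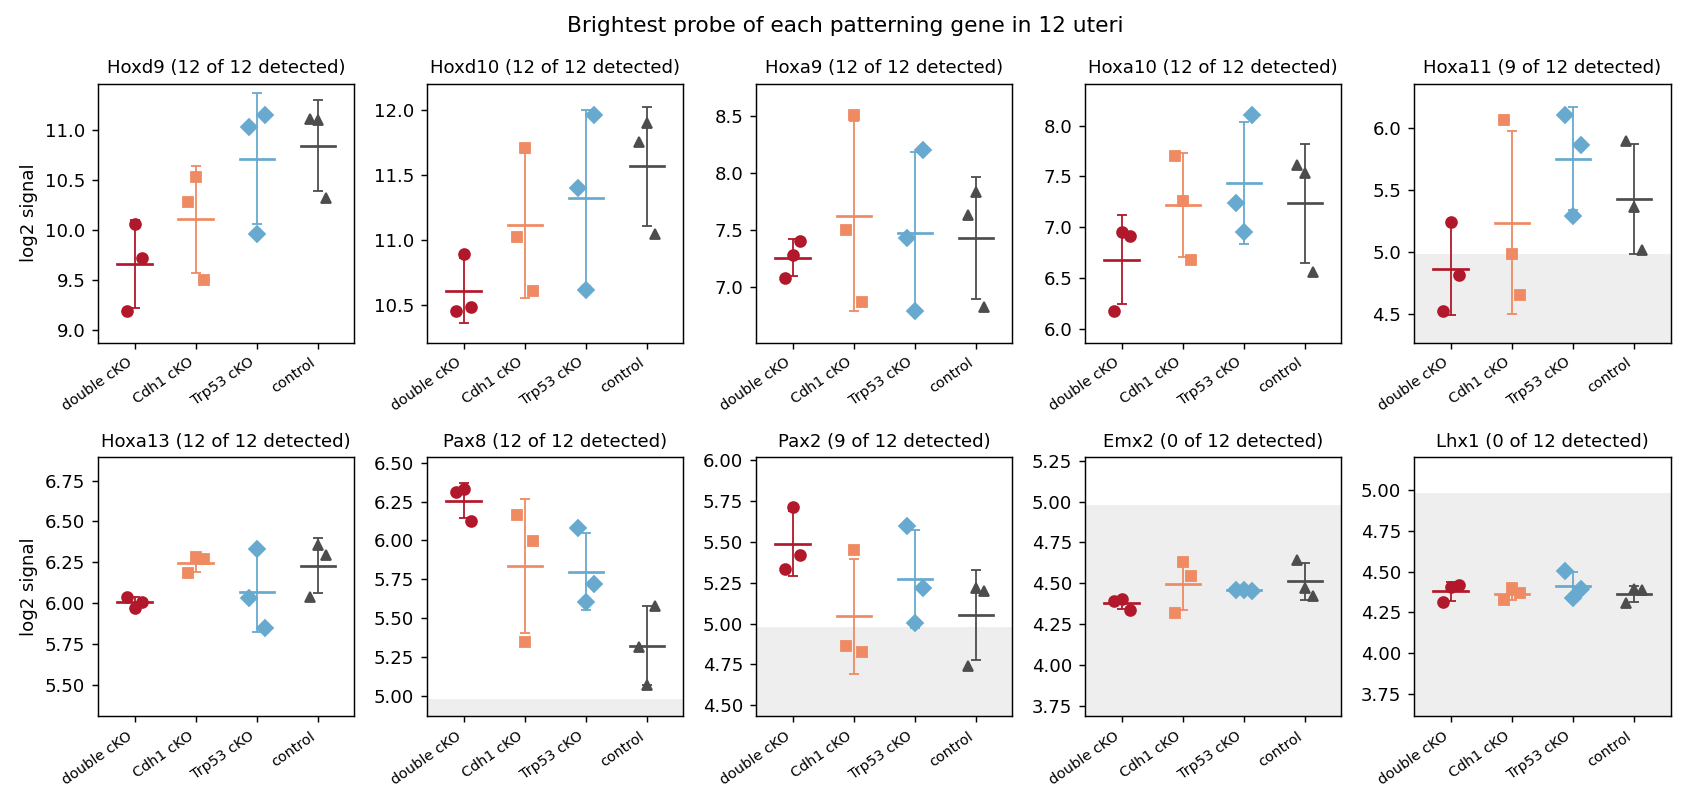
Log2 signal of the brightest probe of each of the 10 genes in 12 uteri, by genotype. Points are single uteri, lines are group means, error bars are 1 SD, the grey band lies below 4.98, the highest of the per-array limits of detection, and each panel has its own axis. By group mean, Hoxd9 and Hoxd10 were lowest in double cKO and Pax8 highest there, while single uteri of the group labelled Cdh1 cKO overlapped them. Emx2 and Lhx1 lay in the grey band in all 12 uteri.

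In double cKO uteri the signals of Hoxd9 and Hoxd10 lay below all 3 control uteri, and the brightest Pax8 probe lay above them. Hoxd9 and Hoxd10 encode posterior Hox factors of the Hoxd cluster. Hoxd9 had log2 signals of 9.19, 10.06 and 9.72 in double cKO uteri, 10.29, 10.53 and 9.50 in uteri labelled Cdh1 cKO, 11.04, 9.96 and 11.15 in Trp53 cKO uteri, and 11.12, 11.11 and 10.32 in control uteri. The 3 double cKO values lay below the 3 control values, while the uteri labelled Cdh1 cKO and the Trp53 cKO uteri each overlapped control. Double cKO uteri differed from control by -1.19 ± 0.39 on the log2 scale (SE, n = 3 each), a signal of 0.438 times control, with a 95% interval of -2.04 to -0.34. It did not pass limma's test, with an adjusted p of 0.165 over all 23229 probes tested. In RNA of whole uteri, fewer cells of a type and less RNA per cell cannot be told apart. The second Hoxd9 probe gave the same size, -1.19 ± 0.39 (adjusted p = 0.172), and correlated with the first at r = 0.99 over the 12 arrays. In order of group means, Hoxd9 ran from 9.66 ± 0.44 in double cKO (SD, n = 3) through 10.11 ± 0.54 in the group labelled Cdh1 cKO and 10.72 ± 0.66 in Trp53 cKO to 10.85 ± 0.46 in control, and neighbours in that order overlapped.

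Hoxd10 followed the same order. Its log2 signals were 10.45, 10.90 and 10.49 in double cKO uteri, 11.03, 11.70 and 10.61 in uteri labelled Cdh1 cKO, 11.40, 10.62 and 11.96 in Trp53 cKO uteri, and 11.75, 11.90 and 11.05 in control uteri. Double cKO and control did not overlap, and the lowest control and lowest Trp53 cKO uteri were the same animals, control replicate 3 and Trp53 cKO replicate 2, that were lowest for Hoxd9. Double cKO differed from control by -0.95 ± 0.37 (95% interval -1.77 to -0.14), which did not pass (limma adjusted p = 0.245). With limma's array weights, which gave double cKO replicate 3 a weight of 7.33 and the other 11 arrays 0.35 to 2.71, Hoxd9 and Hoxd10 did pass, at -1.27 (adjusted p = 0.00240) and -1.20 (adjusted p = 0.00337). Under that setting 5947 of the 23229 probes passed, against 456 without weights.

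The Hoxa genes had smaller differences from control in double cKO uteri. Hoxa9 had 7.08, 7.28 and 7.41 in double cKO uteri, 7.50, 8.51 and 6.87 in uteri labelled Cdh1 cKO, 7.43, 6.79 and 8.21 in Trp53 cKO uteri, and 7.64, 7.84 and 6.83 in control uteri, and all groups overlapped. In double cKO it differed from control by -0.17 ± 0.44 (limma adjusted p = 0.907), with an interval of -1.15 to 0.80 that leaves room for a change of either sign. Hoxa10 had 6.18, 6.96 and 6.91 in double cKO uteri, 7.70, 7.26 and 6.68 in uteri labelled Cdh1 cKO, 7.24, 6.96 and 8.10 in Trp53 cKO uteri, and 7.61, 7.53 and 6.56 in control uteri. Double cKO replicate 1 was the lowest of the 12, and the other 2 double cKO uteri lay above control replicate 3. Hoxa10 differed by -0.56 ± 0.39 in double cKO against control (limma adjusted p = 0.554, interval -1.42 to 0.31).

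Hoxa11 was near the limit of detection, on 1 of 3 double cKO arrays, 2 of 3 arrays of the group labelled Cdh1 cKO, and all arrays of Trp53 cKO and control. It had 4.53, 5.25 and 4.81 in double cKO uteri, 6.07, 4.99 and 4.66 in uteri labelled Cdh1 cKO, 6.10, 5.29 and 5.86 in Trp53 cKO uteri, and 5.89, 5.36 and 5.02 in control uteri. The double cKO values lay below all 3 Trp53 cKO values and overlapped control, with differences of -0.89 ± 0.37 and -0.56 ± 0.37 (limma adjusted p = 0.376 and 0.524). Signals this close to the limit are pressed towards it, so these differences may be too small in size.

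Hoxa13, the most posterior of the Hoxa members, was detected on all arrays by 1 probe. That probe had 6.04, 5.97 and 6.01 in double cKO uteri, 6.19, 6.28 and 6.27 in uteri labelled Cdh1 cKO, 6.03, 6.33 and 5.85 in Trp53 cKO uteri, and 6.04, 6.35 and 6.30 in control uteri. Double cKO lay below control, but the highest double cKO value and the lowest control value both round to 6.04. Its whole range over the 12 uteri was 5.85 to 6.35, the narrowest of the 6 genes with a probe detected on every array. Double cKO differed from control by -0.23 ± 0.16 (limma adjusted p = 0.559), and a second probe, detected on 4 arrays, gave 0.11 ± 0.20 (adjusted p = 0.864). The 2 probes correlated at r = 0.09.

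Pax8 was the gene with the smallest adjusted p in the comparison of double cKO with control. Its brightest probe had 6.31, 6.33 and 6.12 in double cKO uteri, 6.16, 5.35 and 5.99 in uteri labelled Cdh1 cKO, 6.08, 5.60 and 5.72 in Trp53 cKO uteri, and 5.32, 5.07 and 5.58 in control uteri. Double cKO and Trp53 cKO uteri each lay above all control uteri, and 2 of the 3 uteri labelled Cdh1 cKO did. Double cKO differed from control by 0.93 ± 0.23, a 1.91-fold higher signal with a 95% interval of 0.42 to 1.44 on the log2 scale, and it did not pass limma's test (adjusted p = 0.0722). With array weights it passed, at 0.92 (adjusted p = 0.00158). Against control the difference was 0.51 ± 0.23 in uteri labelled Cdh1 cKO and 0.48 ± 0.23 in Trp53 cKO uteri (adjusted p = 0.614 and 0.999).

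The other Pax8 probes did not follow the brightest one, at r = 0.17 and 0.28, and ran against each other at r = -0.73. The second probe, detected on 11 arrays, had 6.45, 5.60 and 6.36 in double cKO uteri, 5.35, 6.05 and 5.54 in uteri labelled Cdh1 cKO, 5.29, 4.62 and 5.49 in Trp53 cKO uteri, and 5.45, 5.48 and 6.53 in control uteri. In double cKO it differed from control by 0.32 ± 0.36, and from Trp53 cKO by 1.002 ± 0.36 (limma adjusted p = 0.744 and 0.284). The third probe was detected on 3 of 3 Trp53 cKO arrays and on 0 of 3 control arrays. It had 5.21, 5.70 and 5.03 in Trp53 cKO uteri, against 4.74, 4.62 and 4.79 in control uteri, at least 1.36-fold higher, and this did not pass (adjusted p = 0.999). That bound takes the lowest signal of a detected probe for the control arrays and the adjusted p of the fit. A statement about Pax8 as a gene therefore rests on which probe is read.

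Pax2, a paired box factor of the embryonic ducts, was detected on 3 of 3 double cKO, 1 of 3 arrays of the group labelled Cdh1 cKO, 3 of 3 Trp53 cKO and 2 of 3 control arrays. It had 5.33, 5.71 and 5.42 in double cKO uteri, 4.86, 5.45 and 4.83 in uteri labelled Cdh1 cKO, 5.60, 5.004 and 5.22 in Trp53 cKO uteri, and 4.74, 5.22 and 5.20 in control uteri. All 3 double cKO values lay above control, with a difference of 0.44 ± 0.23 (limma adjusted p = 0.409).

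**Figure D2:**
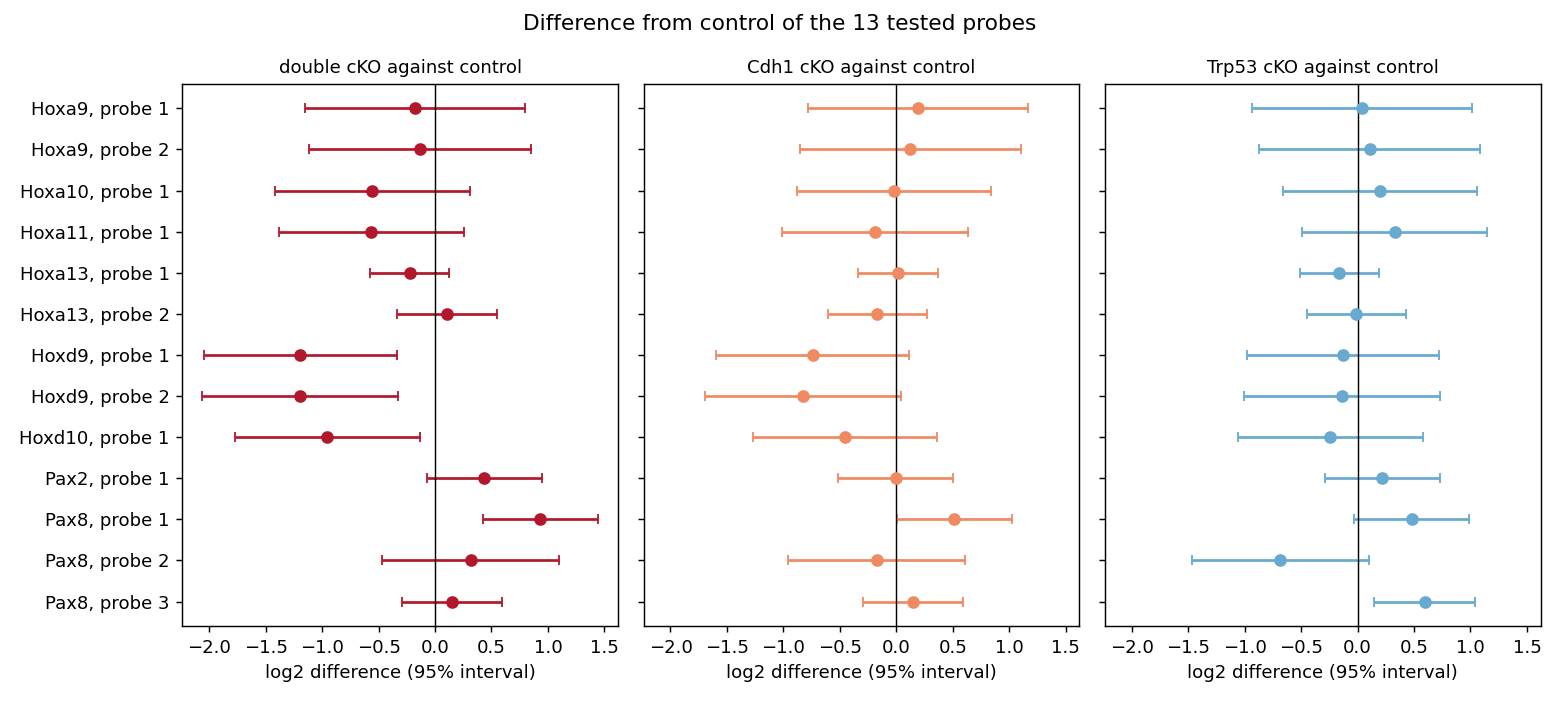
Log2 difference from control of the 13 tested probes, in double cKO uteri, uteri labelled Cdh1 cKO and Trp53 cKO uteri from left to right. Points are limma differences and bars are 95% intervals before adjustment for the number of probes. In double cKO the intervals of both Hoxd9 probes, Hoxd10 and the brightest Pax8 probe leave out 0, and none of the differences passed at an adjusted p below 0.05.

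Counted over the 13 probes, 0 passed limma's test at an adjusted p below 0.05 in double cKO against control, where 1.96% of all 23229 probes passed. At an unadjusted p below 0.05 there were 4 member probes of 3 genes, both Hoxd9 probes and Hoxd10 lower and Pax8 higher, beside 15.4% of all probes. Double cKO lay wholly below control for 4 member probes of 3 genes, beside 13.1% of all probes, and wholly above it for 2 probes, beside 10.9%. Over the 8 genes with a tested probe, each at its brightest, the median log2 difference was -0.39, with 6 below 0. Over all 12194 genes it was -0.05, with 55.5% below 0. Of these 8, Hoxa11 and Pax2 were not detected on every array.

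The uteri with 1 ablation were set against control in the same way. In uteri labelled Cdh1 cKO 0 of the 13 probes passed, beside 0.00861% of all probes, and 1 had an unadjusted p below 0.05, beside 8.14% of all. That was the brightest Pax8 probe, and the brightest Hoxd9 probe at -0.74 ± 0.39 (limma adjusted p = 0.669) had the largest difference among the brightest probes of the other genes. In Trp53 cKO uteri 0 of 13 passed, beside 0.0215% of all probes, and 1 had an unadjusted p below 0.05, beside 2.88% of all. That was the third Pax8 probe at 0.59 ± 0.20, detected on all 3 Trp53 cKO arrays and only 2 others, so it entered the test through the group where it is high and nothing is read from its count. The second Pax8 probe had the largest difference there, -0.69 ± 0.36 (adjusted p = 0.999), and lay the other way from its 0.32 in double cKO. Hoxd9 and Hoxd10 differed there by -0.13 ± 0.39 and -0.24 ± 0.37 (adjusted p = 0.999 each), with intervals of -0.98 to 0.72 and -1.06 to 0.58. The comparisons with control share the 3 control uteri.

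Set against the single ablations, the brightest Hoxd9 probe in double cKO uteri differed by -1.06 ± 0.39 from Trp53 cKO uteri and by -0.45 ± 0.39 from uteri labelled Cdh1 cKO (limma adjusted p = 0.302 and 0.882). Of the 13 probes, 0 passed against Trp53 cKO, beside 0.977% of all, and 4 had an unadjusted p below 0.05, beside 11.9%. Against the group labelled Cdh1 cKO 0 passed, beside 0.396% of all, and 0 had an unadjusted p below 0.05, beside 7.71%. The interaction, which is double cKO minus the group labelled Cdh1 cKO minus Trp53 cKO plus control, gave 0 of 13, beside 0.0129% of all probes. With 1 member probe at an unadjusted p below 0.05, beside 5.01% of all, its largest value was 1.18 ± 0.50 for the second Pax8 probe (adjusted p = 0.975). No difference between the ablations in their effect on a member was shown.

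Several pairs of Hox members varied together over the 12 uteri. Hoxd9 and Hoxd10 correlated at r = 0.93 and rho = 0.98 (permutation p = 4e-05 and 1e-05, the second being the smallest that 100000 resamples give, adjusted p = 0.00112 and 0.00028 over 28 pairs of genes). Without the 2 uteri farthest from the median Hoxd10 value, Trp53 cKO replicate 3 and control replicate 2, r was 0.90, and on values minus their group means it was 0.91. Across the clusters, Hoxa10 correlated with Hoxd9 at r = 0.81 and rho = 0.78 (permutation p = 0.00124 and 0.00388, adjusted p = 0.0139 and 0.0272), and with Hoxa11 at r = 0.81 and rho = 0.78 (p = 0.00149 and 0.00427, adjusted p = 0.0139 and 0.0272). On values minus group means these were 0.84 and 0.74, and without the 2 farthest uteri 0.68 and 0.87. Of the 28 pairs, 7 had an adjusted p below 0.05 for Pearson's r, and all 7 were between 2 Hox genes and positive. The other 4 were Hoxa9 with Hoxd10 at 0.79, Hoxa10 with Hoxd10 at 0.78, Hoxa11 with Hoxd9 at 0.78 and Hoxa9 with Hoxa10 at 0.70. Among the same 5 genes, Hoxa9 with Hoxd9 at 0.62, Hoxa11 with Hoxd10 at 0.60 and Hoxa9 with Hoxa11 at 0.34 did not pass by Pearson's r (adjusted p = 0.0967, 0.115 and 0.489). By rank these pairs had rho = 0.71, 0.65 and 0.40 (permutation adjusted p = 0.0384, 0.0711 and 0.430), so Hoxa9 with Hoxd9 passed by rho alone.

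Hoxa13 correlated with the other Hox members at r between -0.28 and -0.07, and none of these passed. On values minus group means these correlations were -0.63 to -0.48. Pax8 ran against the Hoxd genes, at -0.69 with Hoxd10 and -0.62 with Hoxd9, and neither passed over the 28 pairs (adjusted p = 0.0593 and 0.0971). Within groups the uteri were also far apart: Trp53 cKO replicate 2 was lower than the other Trp53 cKO uteri for Hoxd9, Hoxd10, Hoxa9, Hoxa10 and Hoxa11, and control replicate 3 was lower than the other controls for the same 5 genes. The array, the dissection and the RNA of a uterus are shared by all its genes, and their part in these correlations was not tested.

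To relate the members to the parts of the tract, each uterus was given a score for 3 lists of marker genes, the mean of their log2 signals after each gene was centred on its mean over the 12 uteri. The oviduct list had 15 tested genes of 30 on the array, the list of uterine epithelium and gland 23 of 25, and the squamous list of cervix and vagina 20 of 35. The oviduct score was 0.75, -0.23 and -0.46 in double cKO uteri, -0.39, -0.19 and -0.36 in uteri labelled Cdh1 cKO, 0.28, -0.16 and 0.00 in Trp53 cKO uteri, and 0.23, 0.36 and 0.17 in control uteri. The high double cKO value is replicate 1, the uterus with the high Ovgp1. Of the 15 genes, 9 were highest in that uterus. They include the ciliary genes Tekt1, at 7.23 against 5.30 or less in the other 11 uteri, Cfap126, at 7.44 against 5.59 or less, and Rsph1, at 9.17 against 7.79 or less. Ccdc39 and Rfx3, also among the 9, led by little and near the limit of detection, at 5.23 against 5.21 or less and 5.25 against 5.09 or less. Foxj1, which drives ciliated cells, was at 4.88 there and between 4.80 and 5.82 in the others. Tppp3 was at 8.26 there (8.02 to 10.96 in the others), Rfx2 at 8.39 (8.22 to 10.51) and Dnah11 at 8.73 (8.26 to 10.0025). Hydin was at 4.85 (4.41 to 5.19) and Sntn at 5.17 (4.73 to 5.44). The squamous score was 0.13, 0.67 and 0.50 in double cKO uteri, -0.48, -0.34 and 2.55 in uteri labelled Cdh1 cKO, -0.45, -0.07 and -0.42 in Trp53 cKO uteri, and -0.88, -0.73 and -0.47 in control uteri. Its highest value is replicate 3 of the group labelled Cdh1 cKO, the uterus with the high Krt14.

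The score of uterine epithelium and gland was 0.42, -0.21 and -0.03 in double cKO uteri, 0.03, 0.14 and 0.52 in uteri labelled Cdh1 cKO, -0.24, 0.18 and -0.28 in Trp53 cKO uteri, and -0.03, -0.50 and 0.00 in control uteri. Its brightest genes were the secreted proteins Ltf and Lcn2, and Foxa2, the gland factor, was detected on 7 arrays. None of the 24 correlations between 8 members and 3 scores passed after adjustment. The strongest was Hoxd9 with uterine epithelium and gland, at r = -0.78 and rho = -0.76 (permutation p = 0.00244 and 0.00541, adjusted p = 0.0586 and 0.0607). Without the 2 farthest uteri, replicate 3 of the group labelled Cdh1 cKO and control replicate 2, r was -0.70, and on values minus group means it was -0.85.

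Hoxd9 and Hoxd10 correlated with the squamous score at r = -0.68 and -0.61 (adjusted p = 0.0661 and 0.110), and at -0.82 and -0.80 without replicate 3 of the group labelled Cdh1 cKO and double cKO replicate 2. With the oviduct score Hoxd9 had r = 0.18 over 12 uteri, and 0.81 without double cKO replicate 1, so that value rests on 1 uterus. On values minus group means Hoxd9 had r = -0.09 over the 12 uteri. Leaving out the same uterus moved Hoxd10 from 0.23 to 0.69 and Pax8 from -0.18 to -0.61. It moved Hoxa10 from -0.20 to 0.25 and Hoxa11 from -0.005 to 0.43. Hoxa9, the member associated with the oviduct, correlated with the oviduct score at -0.02. Hoxa10, the uterine member, correlated with the score of uterine epithelium and gland at -0.63 (adjusted p = 0.110). Hoxa13, the cervical and vaginal member, correlated with the squamous score at 0.05. Hoxa11, associated with the uterus and cervix, correlated with the uterine and squamous scores at -0.60 and -0.59 (permutation adjusted p = 0.139 and 0.110). None of these correlations of a member with a list from its part of the tract passed. The uterine list is one of epithelium and gland and does not stand for the stroma. With the stroma score, from the further lists below, Hoxa10 and Hoxa11 had r = 0.46 and 0.64. Neither passed (permutation adjusted p = 0.374 and 0.153 over 80).

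The scores of 10 further lists of cell types and states were set beside the 8 members in the same way, a step chosen after the data were seen. Of these 80 correlations 2 passed, both with the 17 genes of simple epithelium, among them the keratin Krt8 and Rab25. That score was 0.82, 0.19 and 0.44 in double cKO uteri, 0.37, -0.43 and 0.70 in uteri labelled Cdh1 cKO, -0.25, 0.09 and -0.43 in Trp53 cKO uteri, and -0.86, -0.88 and 0.24 in control uteri. Hoxd9 correlated with it at r = -0.92 and rho = -0.90 (permutation p = 4e-05 and 9e-05, adjusted p = 0.0032 and 0.0036 over 80). Hoxd10 did so at r = -0.91 and rho = -0.91 (p = 9e-05 and 6e-05, adjusted p = 0.0036 each). Without the 2 farthest uteri, control replicates 1 and 2, r was -0.90 and -0.89, and on values minus group means -0.86 and -0.88. Trp53 cKO replicate 2 and control replicate 3, the uteri with low Hoxd9 and Hoxd10 in their groups, had the highest epithelial scores of their groups.

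Hoxa10 and Hoxa9 had r = -0.72 and -0.66 with simple epithelium and Pax8 had 0.79, and none of these passed (adjusted p = 0.0966, 0.127 and 0.0744). Pax8 fell to 0.60 without control replicates 1 and 2. In double cKO against control, 16 of the 17 simple epithelium genes were above 0 and 1 passed, with a median of 0.74. Of 19 stroma genes, 5 were above 0 and 0 passed, with a median of -0.32. Over all 12194 genes, 55.5% were below 0 and the median was -0.05. The myeloid score was 1.14 to 1.55 in double cKO, -0.40 to 0.18 in the group labelled Cdh1 cKO, -0.55 to -0.46 in Trp53 cKO and -0.98 to -0.57 in control. Against control, 12 of its 23 genes passed as higher in double cKO, beside 1.96% of all probes in either direction. Of these, Cxcr2 and Cd300lf were detected on double cKO arrays alone. They entered the test through the group where they are high, and nothing is read from their calls. The part of epithelial, stromal and myeloid cells in the differences of Hoxd9, Hoxd10 and Pax8 was not tested.

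**Figure D3:**
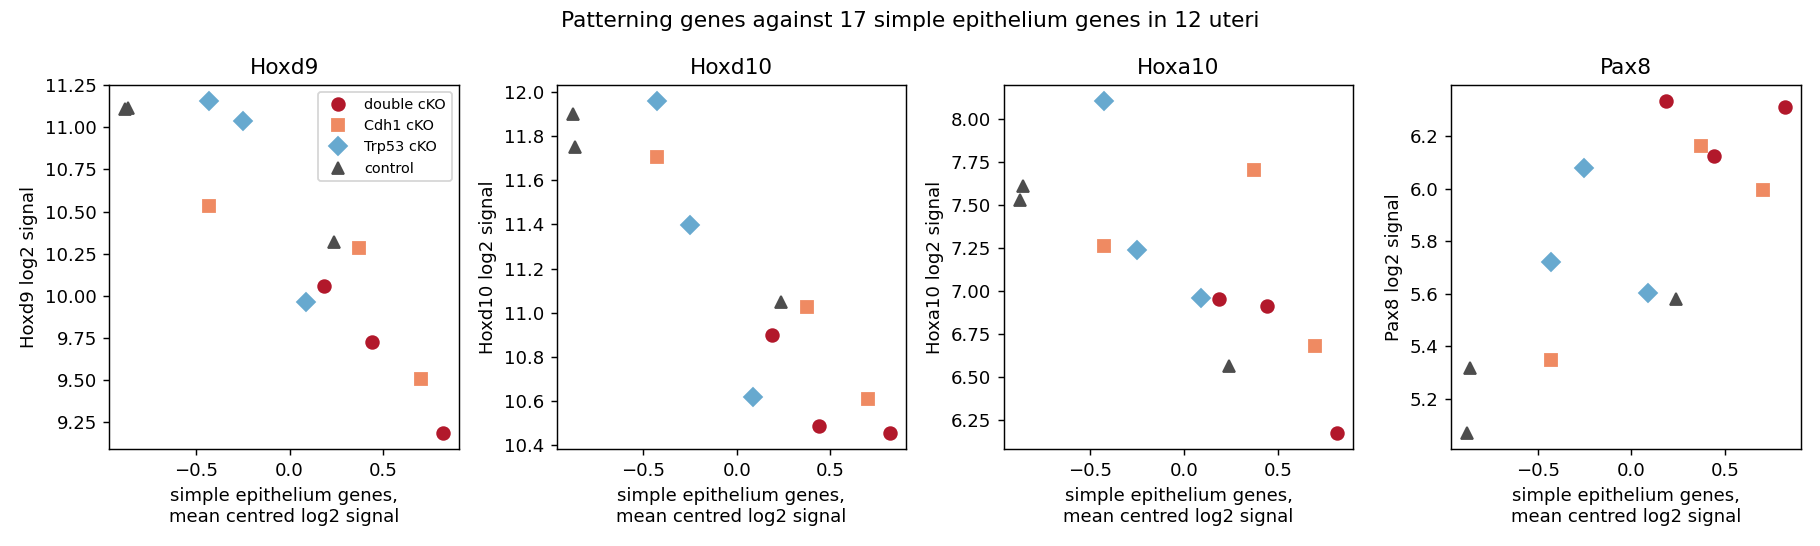
Log2 signal of Hoxd9, Hoxd10, Hoxa10 and Pax8 (vertical axes) against the simple epithelium score (horizontal axes, mean centred log2 signal of 17 genes) in 12 uteri. Each point is 1 uterus, with colour and shape for genotype. Hoxd9 and Hoxd10 fall along the score within each genotype as well as across them, at r = -0.92 and -0.91, and Pax8 rises with it at r = 0.79.

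**Figure D4:**
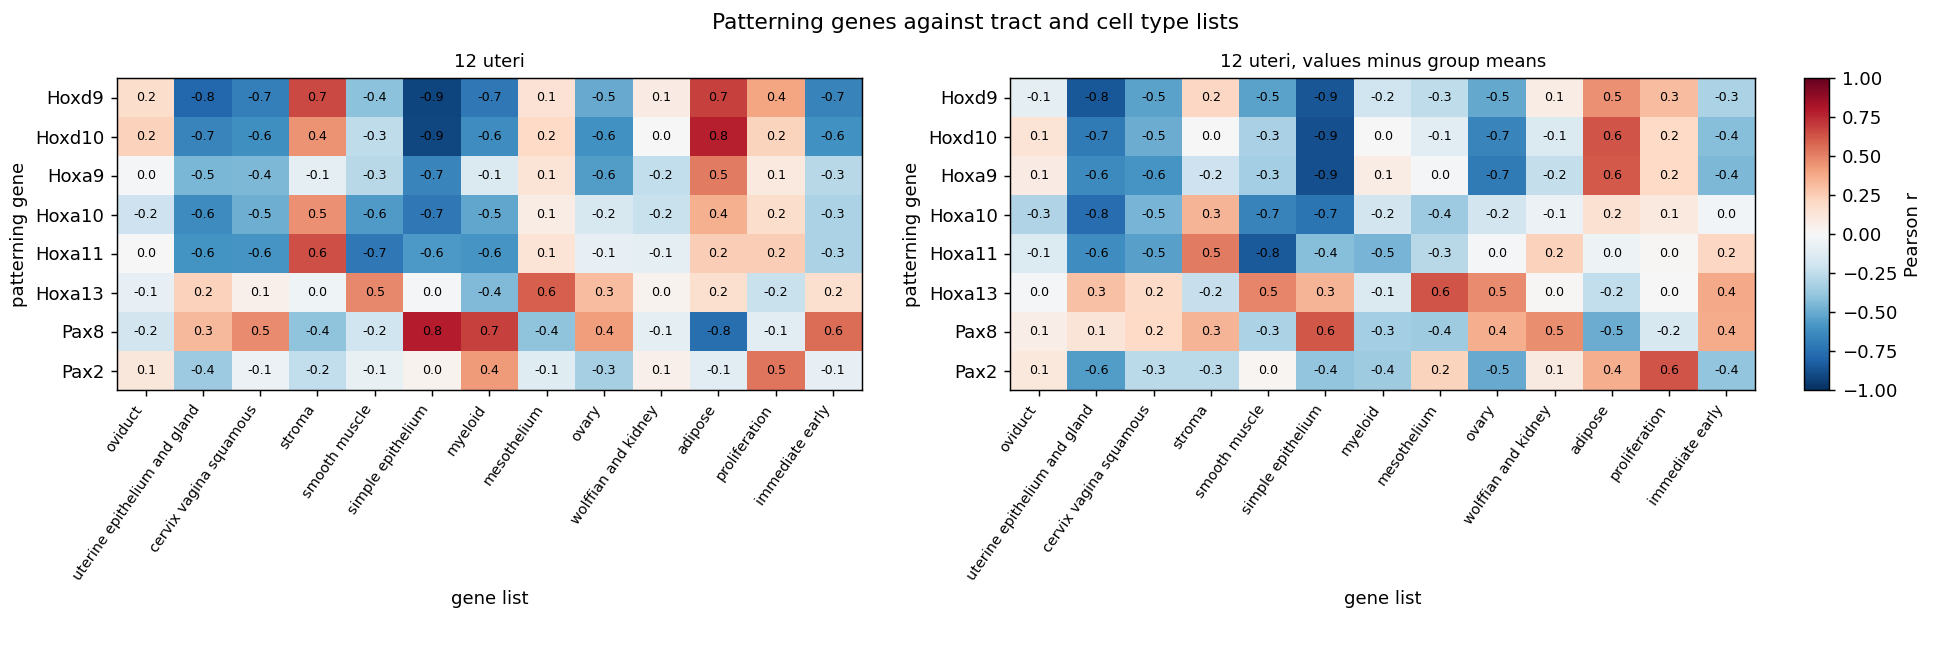
Pearson r of 8 members with the scores of 3 tract lists and 10 other lists over 12 uteri, on the values as they are (left) and after the mean of each genotype was taken off (right). Blue is negative and red positive. On the left the darkest cells are those of Hoxd9 and Hoxd10 with simple epithelium, and the oviduct columns are pale for all 8 genes.

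The remaining genes of the pathway were read from 4 lists, whose counts stand beside 1.96% of all probes called in double cKO against control and 55.5% of the 12194 genes below 0. Of 20 tested Hox genes outside the member list, 1 passed as higher and 0 as lower in double cKO against control, with a median of 0.00. Hoxb9, a paralogue of Hoxa9 and Hoxd9, had 5.25, 5.50 and 5.52 in double cKO uteri, detected on 3 of 3 arrays, against 4.42, 4.51 and 4.72 in control uteri, detected on 0 of 3. It was at least 1.47-fold higher (limma adjusted p = 0.0277), and since it entered the test through the double cKO arrays alone, its count adds nothing to the list. Its call was lost under 6 of 14 other settings, among them leaving out control replicate 1 or 2 or double cKO replicate 2 or 3, with an adjusted p of up to 0.124. Hoxd8, the neighbour of Hoxd9 in the cluster, had 7.99, 8.72 and 8.15 in double cKO uteri, against 9.71, 9.57 and 8.67 in control uteri, and did not pass (-1.03 ± 0.29, adjusted p = 0.112). Double cKO replicate 2 lay above control replicate 3, so the groups overlapped.

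Among 40 tested genes of Mullerian duct and tract development, 1 passed as higher and 2 as lower in double cKO against control, with 23 below 0 and a median of -0.05. Runx1, a runt domain transcription factor that is also strongly expressed in blood cells, had 7.93, 8.22 and 8.33 in double cKO uteri, against 5.67, 5.04 and 6.75 in control uteri, a difference of 2.34 ± 0.36 (limma adjusted p = 0.00864) that passed under all 14 other settings. It was also higher than in Trp53 cKO uteri, by 2.60 (adjusted p = 0.00614). Fgf10, a growth factor of the mesenchyme, had 6.36, 6.55 and 5.76 in double cKO uteri, against 8.30, 8.79 and 7.997 in control uteri, and differed by -2.14 ± 0.43 (adjusted p = 0.0311). Osr1, a zinc finger factor of the urogenital mesoderm, had 5.17, 6.33 and 6.59 in double cKO uteri, against 8.21, 8.06 and 7.34 in control uteri, and differed by -1.84 ± 0.37 (adjusted p = 0.0331). The calls of Fgf10 and Osr1 were each lost under 7 of 14 other settings, with the direction kept, including leaving out control replicate 1 or 2 or double cKO replicate 1 or 2, and for Fgf10 also double cKO replicate 3. With the replicate number as a block the calls of Hoxb9, Fgf10 and Osr1 were lost and that of Runx1 was not. How these genes relate to the markers of stroma and blood cells given above was not tested.

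Of the 8 tested Hox cofactors, which bind DNA together with Hox proteins, 0 passed, with 6 below 0 and a median of -0.35, and the smallest p belonged to Pknox2 at -0.90 ± 0.40 and Pbx2 at -0.43 (limma adjusted p = 0.308 each). Of 13 genes linked to Hoxa10 or Hoxa11 in the uterus, 0 passed in double cKO against control, with a median of -0.07. The progesterone receptor gene Pgr differed by -1.20 ± 0.30 without passing (adjusted p = 0.0743), and the implantation cytokine Lif differed by 0.49 ± 0.33. In uteri labelled Cdh1 cKO and in Trp53 cKO uteri 0 genes of the 4 lists passed against control.

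For each member the genes with the most similar pattern over the 12 uteri are given as a description, among 12193 genes compared, a number at which high values of r are common. Hoxd9 was most like Ccs, Gprasp1 and Map2, at r = 0.96, 0.96 and 0.95, and Hoxd10 most like Tgfbrap1, Klhl22 and Gstm7, at 0.97 each. Hoxa9 was most like Asphd2, Slc25a28 and Slc29a3 (0.93, 0.92 and 0.92), Hoxa10 most like Tsr3, Rtl8a and Snai1 (0.93, 0.91 and 0.90), and Hoxa11 most like Simc1, Bag5 and Hint1 (0.92, 0.92 and 0.91). For the members outside this group the values were lower. Hoxa13 was most like Rab33b, Mfsd3 and Cdh2 (0.87, 0.84 and 0.84), Pax8 most like Reep6, Grhl1 and Ptbp3 (0.89, 0.87 and 0.87), and Pax2 most like Phactr2, Gtf2ird1 and Nudt10 (0.87, 0.86 and 0.86).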

How the data were processed

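The 12 uteri were grouped by the genotype in the labels, 3 per group. The authors deposited non-normalized intensity per probe, per the file headers with a detection p-value, a bead count and the standard error over beads, and a series matrix of log2 values of the same arrays. The sources used here do not give the matrix's background correction or normalization, and the submitters' processing notes list limma 3.10.2. The matrix values are not ratios: their column medians were 4.72, and they differed by at most 0.0234 from log2 values computed here from the intensities with limma's neqc (offset 16). The matrix was used, and 12 columns of standard errors were left aside.

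A probe was kept where at least 3 arrays had a detection p below 0.05, which left 23229 of 45281. A limma 3.58.1 model (R 4.3.3) of the 4 group means was fitted to the 12 arrays, with 8 residual degrees of freedom and a prior of 3.08. P-values were 2-sided and adjusted by Benjamini-Hochberg over the 23229 probes, and a probe was called at an adjusted p below 0.05. Errors beside differences are standard errors. The fit was tested on simulated data. Platform annotation gave 34885 probes 1 symbol, 18 several and 10378 none. Correlations used 100000 permutations, 2-sided.

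The members, lists and tests were chosen with earlier results of these data known. Named are all members, Cdh1, called genes of the 4 pathway lists (otherwise the 2 of smallest p), the brightest genes of marker lists and the 3 genes most like each member. Ovgp1, Foxj1, Tekt1, Cfap126, Rsph1, Krt14, Acta2, Foxa2, Hoxd8, Pgr and Lif were named after their values were seen. So were Tppp3, Rfx2, Rfx3, Ccdc39, Dnah11, Hydin, Sntn, Cxcr2 and Cd300lf. Trp53 was not analysed here. Replicate numbers repeat across groups. Same-numbered uteri deviated together (r = 0.11, 0.32 and 0.20) between the group labelled Cdh1 cKO and control. They deviated in opposite ways between Trp53 cKO and the group labelled Cdh1 cKO (r = -0.17, -0.64 and -0.33). The same held between Trp53 cKO and control (r = -0.07, -0.36 and -0.27). In the pairs with double cKO, r for the same number was between -0.18 and 0.09. Uteri of different numbers reached r = 0.56, for Trp53 cKO replicate 3 with replicate 2 of the group labelled Cdh1 cKO. These values therefore do not show a pairing by number. Alternatives were neqc values, median scaling, other filters on dim probes, 1 probe a gene, only the groups compared, array weights, a replicate block and leaving out each replicate.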

Additional observations from a re-analysis of the deposited data

How the results depend on the processing

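In all 6 comparisons the count of member probes called was 0 under neqc values, median scaling, no filter or a stricter filter on dim probes, 1 probe a gene, the replicate block and each replicate left out, and with only the groups compared where that was possible. With array weights it was 5 in double cKO against control (both Hoxd9 probes, Hoxd10 and 2 Pax8 probes) and 6 against Trp53 cKO (both Hoxd9 probes, Hoxd10, Hoxa11 and 2 Pax8 probes), where 5947 and 4950 of all probes passed. The replicate block changed the call of no member, and over all probes it left 247, 1, 3, 50, 135 and 0 calls in double cKO, the group labelled Cdh1 cKO and Trp53 cKO against control, in double cKO against the group labelled Cdh1 cKO and against Trp53 cKO, and in the interaction, against 456, 2, 5, 92, 227 and 3 without it. Between the group labelled Cdh1 cKO and control, where same-numbered uteri deviated together, the block thus left 1 call of 2. The labels do not say that a replicate number pairs uteri. With replicates left out, Hoxd9, Hoxd10 and the brightest Pax8 probe kept their direction in double cKO against control, at -1.46 to -0.96, -1.21 to -0.79 and 0.81 to 1.06, with adjusted p up to 0.466, 0.614 and 0.292.

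Of 1115 alternative values of member differences, 61 changed sign. No member difference had passed in the main fit, so a change of sign could not touch a call. Median scaling turned Hoxa13 and Pax2 in the group labelled Cdh1 cKO to -0.046 and 0.0066. Array weights turned both Hoxa9 probes there to -0.181 and -0.199, Hoxa9 in Trp53 cKO to -0.0415, and the third Pax8 probe in double cKO against the group labelled Cdh1 cKO to -0.110. The other changes of sign came with 1 uterus left out, and the following log2 differences ran over these ranges. In double cKO against control they were -0.479 to 0.0267 and -0.41 to 0.0248 for the first and second Hoxa9 probes and -0.0031 to 0.241 for the second Hoxa13 probe. In the group labelled Cdh1 cKO against control they were -0.252 to 0.572 and -0.357 to 0.453 for the Hoxa9 probes, -0.356 to 0.246 for Hoxa10, -0.602 to 0.101 for Hoxa11, -0.0791 to 0.0782 for Hoxa13, -0.210 to 0.104 for Pax2 and -0.377 to 0.178 for the second Pax8 probe. In Trp53 cKO against control they were -0.325 to 0.384 and -0.234 to 0.490 for the Hoxa9 probes, -0.138 to 0.435 for Hoxa10, -0.171 to 0.124 for the second Hoxa13 probe, -0.396 to 0.247 and -0.412 to 0.252 for the Hoxd9 probes and -0.560 to 0.112 for Hoxd10. In double cKO against the group labelled Cdh1 cKO they were -0.747 to 0.0767 and -0.584 to 0.226 for the Hoxa9 probes, -0.665 to 0.039 for Hoxa11 and -0.113 to 0.113 for the third Pax8 probe. In double cKO against Trp53 cKO they were -0.558 to 0.150 and -0.620 to 0.103 for the Hoxa9 probes and -0.176 to 0.0662 for Hoxa13. In the interaction they were -0.788 to 0.0359 and -0.745 to 0.119 for the Hoxa9 probes, -0.192 to 0.0503 for Hoxa13, -0.622 to 0.0416 for the second Hoxd9 probe, -0.611 to 0.0598 for Hoxd10 and -0.301 to 0.108 for the brightest Pax8 probe. The cause was not tested. Of 120 alternative values of the correlations, 23 moved by 0.2 or more. Hoxa11, Pax2, the second Hoxa13 probe and the third Pax8 probe are limited by signal over background, and Emx2 and Lhx1 could not be tested.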
